A study of Rattus norvegicus with 20 samples.

Results

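The dual-specificity MAP kinase phosphatases described here are 10 genes, Dusp1, Dusp2, Dusp4, Dusp5, Dusp6, Dusp7, Dusp8, Dusp10, Dusp14 and Dusp16, taken by symbol from the 17337 gene symbols of the count table. Of the 10, 7 passed the filter on low counts and were tested among 8320 genes; Dusp4, Dusp14 and Dusp16 did not pass. Messenger RNA was measured in primary rat lung cells. Type II pneumocytes of Sprague-Dawley rats, the surfactant-making cells of the alveolus, were kept for 4 days on silastic membranes coated with fibronectin, where they took on features of type I cells, the flat cells that line the air space. There were 4 groups of 5 libraries. Unstretched cells (NS) had 0.01% DMSO for 24 h. Stretched cells (S) had 0.01% DMSO for 18 h and were then stretched cyclically in both directions for 6 h, with an area change of 25% repeated 15 times per min. NS_PI and S_PI were unstretched and stretched cells with 1 µM GSK2606414, an inhibitor of the endoplasmic reticulum stress kinase PERK. In S_PI the inhibitor was given for 18 h before the stretch; for NS_PI 1 description gives 18 h and the other 24 h. No DMSO content is given for the inhibitor groups. All groups shared the culture and the membrane, and each library pooled 4 technical replicate monolayers of 1 animal, so each comparison rests on 5 animals.

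MAP kinases (ERK, JNK and p38) are switched on when a threonine and a tyrosine in their activation loop are phosphorylated, and the phosphatases of this family switch them off by removing both phosphates. Dusp1, Dusp2, Dusp4 and Dusp5 encode nuclear enzymes that are typically induced by the kinases they act on. Dusp6 and Dusp7 encode cytoplasmic enzymes directed at ERK, Dusp8, Dusp10 and Dusp16 enzymes directed mainly at JNK and p38, and Dusp14 a small atypical enzyme without the MAP kinase-binding domain. Several of these genes are immediate-early genes, whose transcripts are short-lived and rise within the first hours of a stimulus.

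Promoter sequences are shown first for the 3 nuclear-enzyme genes that were measurable, because their windows hold response elements of kinase-controlled transcription factors, and for Dusp7 as an example of the 4 tested genes, with Dusp6, Dusp8 and Dusp10, whose windows hold none of them. These choices follow the letters and not the direction of change: Dusp1 had no shared direction, and Dusp10 was called higher with inhibitor. RefSeq (build GRCr8) gave windows of 300 bases, from 250 before to 50 after the transcript start, for 9 of the 10 genes, with 11 windows in all; the 250 bases before the start are printed, 5′ to 3′, all on the plus strand. Capitals mark a cAMP response element (CRE, TGACGTCA), its core TGACG on either strand, an AP-1 site (TGACTCA or TGAGTCA) or a CArG box, the element bound by serum response factor. These windows are upstream flank by annotation, and the expression files themselves were made on build rn6, so the coordinates belong to the sequences alone.
Dusp1, chr10:17184603-17184852: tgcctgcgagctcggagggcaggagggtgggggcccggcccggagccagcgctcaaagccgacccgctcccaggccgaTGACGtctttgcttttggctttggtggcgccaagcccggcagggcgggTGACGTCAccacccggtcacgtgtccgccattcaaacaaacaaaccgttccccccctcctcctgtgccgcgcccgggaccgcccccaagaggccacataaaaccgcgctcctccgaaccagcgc
Dusp2, chr3:135009386-135009635: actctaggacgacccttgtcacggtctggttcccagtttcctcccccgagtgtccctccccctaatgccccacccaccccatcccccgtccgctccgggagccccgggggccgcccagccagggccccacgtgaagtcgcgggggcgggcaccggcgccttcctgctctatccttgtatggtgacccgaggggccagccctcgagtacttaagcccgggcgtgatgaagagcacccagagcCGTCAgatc
Dusp5, chr1:262543524-262543773: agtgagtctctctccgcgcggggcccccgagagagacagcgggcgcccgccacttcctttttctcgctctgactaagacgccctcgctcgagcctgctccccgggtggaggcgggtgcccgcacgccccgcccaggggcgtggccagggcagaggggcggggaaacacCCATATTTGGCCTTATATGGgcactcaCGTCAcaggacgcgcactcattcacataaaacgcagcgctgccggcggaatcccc
Dusp7, chr8:115887841-115888090: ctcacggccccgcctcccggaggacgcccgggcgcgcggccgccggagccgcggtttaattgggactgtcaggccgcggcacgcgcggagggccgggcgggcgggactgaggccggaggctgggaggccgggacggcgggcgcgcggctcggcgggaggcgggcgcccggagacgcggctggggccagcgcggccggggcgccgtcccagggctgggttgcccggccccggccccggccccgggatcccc

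The Dusp1 window held a full CRE from base -124 to base -117 counted from the start, which 1.83% of the 33469 RefSeq promoter windows of this length hold, and a further CRE core at -172. In the Dusp5 window 2 CArG boxes lay end to end, from -82 to -73 and from -72 to -63, followed by a CRE core at -55. Any CArG box was found in 1.64% of all windows and 2 or more in 0.0209%. The Dusp2 window held a CRE core at -9, an element of 21.2% of all windows. The E box CACGTG, found in 6.42% of all windows, occurred in the Dusp1 window at -107 and in the Dusp2 window at -123. None of the capitalised elements was present in the windows of Dusp6, Dusp7, Dusp8 or Dusp10, and Dusp16 held a CRE core at -70. Dusp14 has 3 annotated starts, and 1 of its windows held an AP-1 site at -89, an element of 4.63% of all windows. The GC box GGGCGG was the commonest match, in 7 of the 11 windows and in 33.1% of all windows; the TATA box TATAAA occurred in 1 of the 11, for Dusp14, and in 14.2% of all. Both strands were searched, and the full CRE and the core overlap by construction. A match describes the letters of the window and says nothing of binding in these cells.

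**Figure D1:**
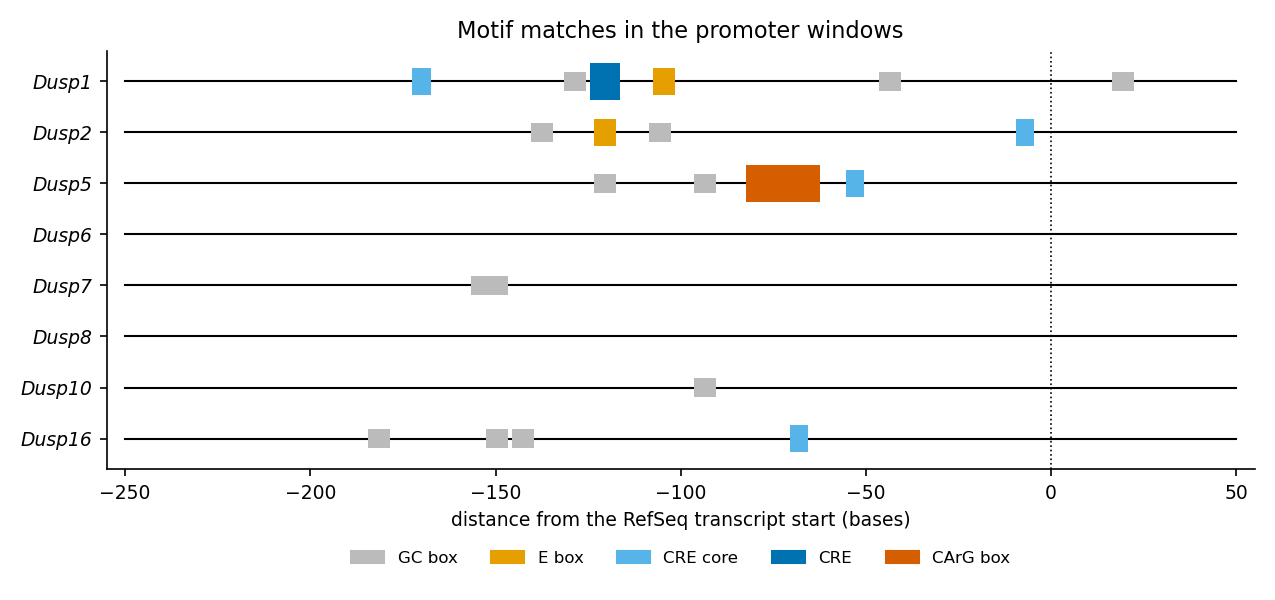
Positions of the motif matches in the RefSeq promoter windows of 8 phosphatase genes, with distance from the transcript start in bases on the horizontal axis and the start as a dotted line. Coloured blocks mark each motif, matched on either strand; Dusp1 carries the full CRE near -124, Dusp5 the 2 adjoining CArG boxes between -82 and -63, and Dusp6 and Dusp8 carry no match.

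Levels are given as CPM, the counts of a gene scaled to a common library total with TMM factors. The library method makes 1 fragment per transcript near its 3′ end, so CPM can be set side by side between genes without a length correction. Gene counts per library ranged from 999209 to 3131541, and the detection floor of 3 counts corresponded to 1.07 to 3.05 CPM. In unstretched cells the order of the group means was Dusp6 (1092 ± 277 CPM, SD, n = 5), Dusp1 (242 ± 47.1), Dusp2 (68.8 ± 36.9), Dusp7 (52.0 ± 29.9), Dusp10 (42.4 ± 11.7), Dusp5 (16.3 ± 4.89), Dusp8 (5.45 ± 1.49) and Dusp16 (3.16 ± 0.902). Dusp6 lay above Dusp1, Dusp1 above Dusp2, Dusp10 above Dusp5 and Dusp5 above Dusp8 with no overlap of the 5 libraries. The neighbours Dusp2 and Dusp7, and likewise Dusp7 and Dusp10, were in the stated order in only 3 of 5 animals, so their order was not separated from the spread. Dusp6 alone supplied 54.9 to 76.4% of the summed CPM of the 10 genes in each of the 20 libraries, and Dusp1 supplied 8.28 to 26.1%. In stretched cells the mean of Dusp7 (24.3 ± 10.7 CPM) was below those of Dusp10 (72.5 ± 40.4 CPM) and Dusp5 (33.1 ± 21.5 CPM). Dusp5 was above Dusp7 in only 3 of 5 animals there and their ranges overlapped, so the order of that pair was not separated from the spread. Dusp1 and Dusp2 overlapped in S, and Dusp1 was the higher of the pair in 3 of 5 animals.

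**Figure D2:**
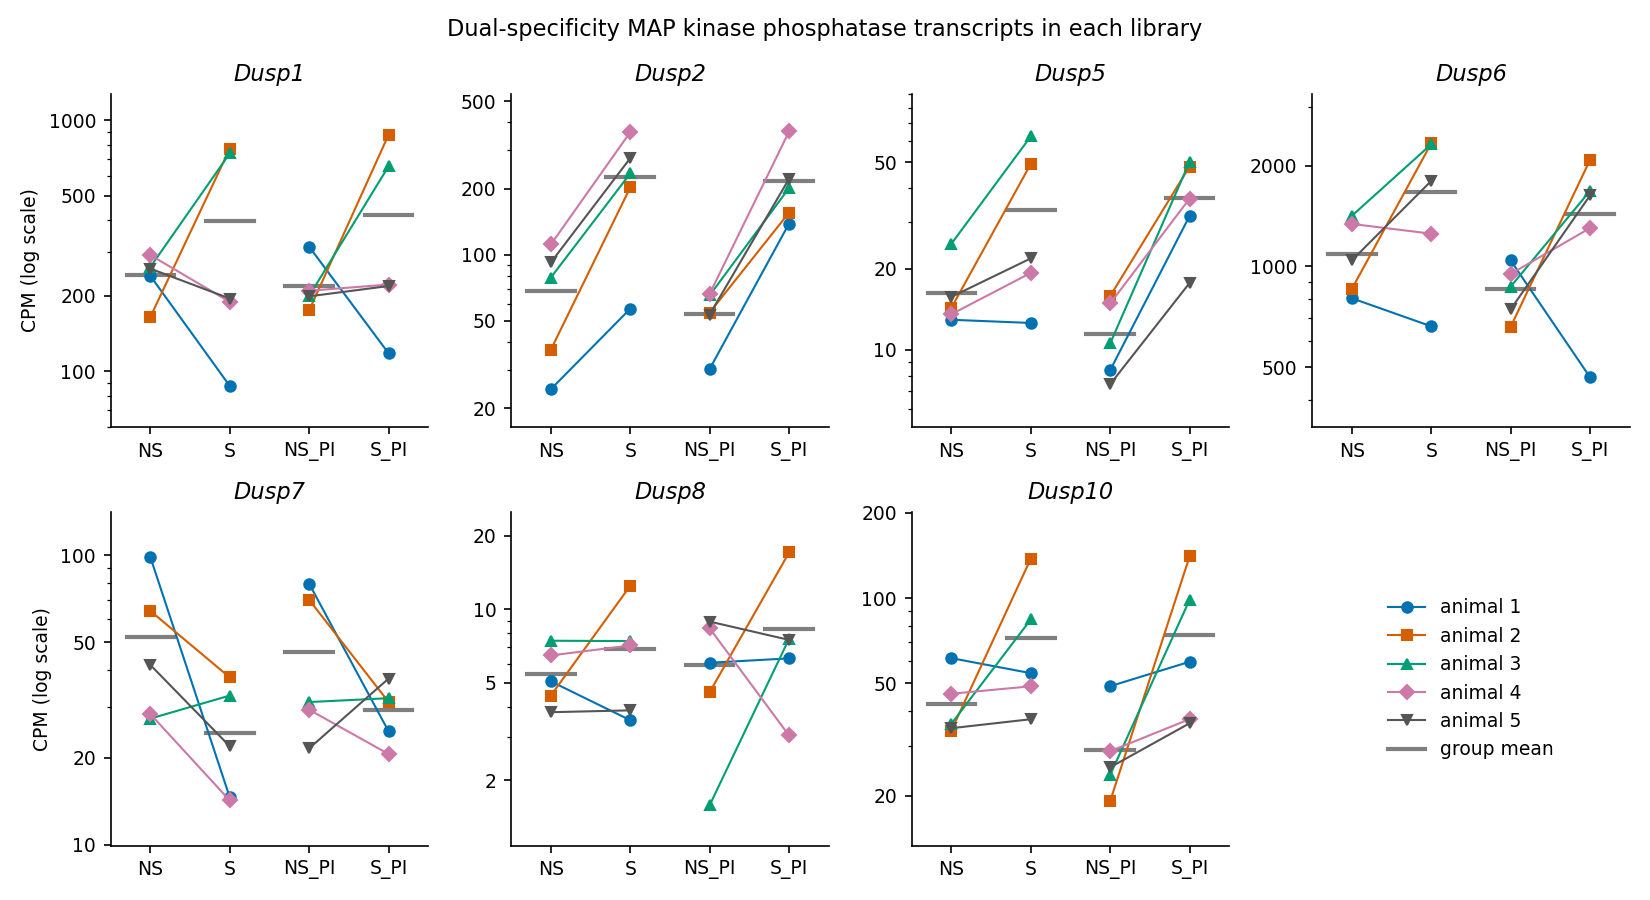
Level of each tested phosphatase transcript in the 20 libraries, as CPM on a log axis, by group; coloured symbols are animals, lines join the unstretched and stretched library of 1 animal, and grey bars are group means. Dusp2 rose in every line, from a mean of 68.8 to 225.9 CPM without inhibitor and from 54.0 to 216.1 CPM with it, while the Dusp1 lines of animals 2 and 3 rose and that of animal 1 fell.

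Stretch raised 2 of the 7 tested phosphatase transcripts without inhibitor, Dusp2 and Dusp5, and lowered 1, Dusp7. With inhibitor it raised 3, Dusp2, Dusp5 and Dusp10, and lowered none. Calls are at an adjusted p below 0.05 in edgeR's quasi-likelihood test with animal as a block, Benjamini-Hochberg adjusted over all 8320 genes, and log2 differences are fitted values with their standard errors. Of all tested genes 12.5% were called higher and 12.4% lower without inhibitor, or 24.9% in either direction, and 15.2% higher and 15.3% lower with it, or 30.5%. The median log2 difference of the 7 genes was 0.54 without and 0.58 with inhibitor, against -0.01 and -0.02 over all tested genes. The number of genes is small, and 2 of 7 or 3 of 7 is not set apart from the background by a test.

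Dusp2, the nuclear phosphatase best known from activated leukocytes, had the largest fitted rise among the 7 in both settings. In animals 1 to 5 it was at 24.5, 37.0, 78.8, 111 and 92.2 CPM in NS, and at 56.8, 202, 234, 361 and 275 CPM in S. With inhibitor the values were 30.2, 54.6, 65.4, 66.4 and 53.5 CPM unstretched, and 139, 156, 201, 364 and 222 CPM stretched. Every animal was higher after stretch in both settings, as were 8.77% of all tested genes. The groups overlapped without inhibitor, where the stretched library of animal 1 lay below the 3 highest unstretched ones, and did not overlap with inhibitor, as for 7.16% of all genes in this direction. The log2 difference was 1.71 (SE 0.21, adjusted p = 1.7e-05 by edgeR) for S against NS, a 3.27-fold rise, and 1.97 (SE 0.21, adjusted p = 1.98e-06 by edgeR) for S_PI against NS_PI, a 3.92-fold rise. Transcripts listed as leukocyte markers were present in these monolayers. Over 20 listed markers the summed level was 1566 to 10430 CPM in NS and 2112 to 13853 CPM in S. Of these, 12 were tested, and 5 were called higher and none lower for S against NS, beside 12.5% and 12.4% of all tested genes. Most of the sum was Lyz2 alone, with a mean of 4596 of 6170 CPM in NS and 5369 of 7668 CPM in S. Lyz2 was not among the 5 called. The sum and its ratio therefore follow mainly that 1 gene. In NS the marker sum was 1566, 8117, 7097, 10430 and 3641 CPM in animals 1 to 5. Animal 1 was lowest and animal 4 highest for both the sum and Dusp2. Between them the orders differed, with animal 2 above animal 5 for the sum and below it for Dusp2. The stretched-to-unstretched ratio of the marker sum was 1.02 to 1.35 across animals without inhibitor, where that of Dusp2 was 2.32 to 5.47, and with inhibitor it was 1.65, 0.914, 1.21, 1.31 and 1.69 in animals 1 to 5, where that of Dusp2 was 2.85 to 5.47. The marker sum was thus higher after stretch in 4 of 5 animals with inhibitor and in 5 of 5 without it. In pooled RNA of this kind, more cells of a type and more transcript per cell cannot be told apart, and the part of the leukocyte markers in the Dusp2 result was not tested.

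Dusp5, a nuclear phosphatase specific for ERK, was a low transcript that rose in both settings. Across animals 1 to 5 it read 12.9, 14.3, 24.8, 13.5 and 15.7 CPM in NS and 12.6, 49.2, 62.4, 19.3 and 21.9 CPM in S. With inhibitor it read 8.38, 15.8, 10.5, 14.9 and 7.43 CPM unstretched and 31.5, 48.2, 50.2, 36.6 and 17.7 CPM stretched. Animals 2 and 3 were the high ones after stretch without inhibitor and animal 1 did not move, whereas with inhibitor all 5 animals were higher, as for 18.2% of all tested genes there (13% without inhibitor), and the groups did not overlap. The log2 difference was 0.93 (SE 0.26, adjusted p = 0.0139 by edgeR, higher in 4 of 5 animals) without inhibitor and 1.65 (SE 0.27, adjusted p = 0.000147 by edgeR, 5 of 5) with it. Without inhibitor the call ended when animal 2 (adjusted p = 0.107) or animal 3 (adjusted p = 0.0683) was left out, and in the edgeR fit that ignored animal (adjusted p = 0.0843).

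Dusp1, the most studied nuclear phosphatase of the family and a broad regulator of p38, JNK and ERK, had no shared direction. It was at 240, 165, 260, 290 and 257 CPM in NS animals 1 to 5, a narrow range. In S it was at 87.5, 770, 739, 189 and 195 CPM, and in S_PI at 118, 876, 656, 222 and 219 CPM. The unstretched inhibitor libraries held 314, 175, 200, 209 and 199 CPM. The SD thus grew from 47.1 CPM in NS to 330 CPM in S, with animals 2 and 3 high and animal 1 low after stretch in both settings. The average log2 difference was 0.30 (SE 0.44, 95% interval -0.62 to 1.22, adjusted p = 0.653 by edgeR, higher in 2 of 5 animals) without and 0.53 (SE 0.45, adjusted p = 0.385) with inhibitor, and neither passed the test. Without animal 2 or without animal 3 the average without inhibitor was below 0, at -0.16 and -0.06. With inhibitor, leaving out animal 1 brought the log2 difference to 1.10 with an adjusted p of 0.0313 by edgeR.

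Dusp6, the cytoplasmic ERK phosphatase whose gene is itself a target of ERK signalling, was the most abundant of the 10 and did not pass the test in either setting. Values in animals 1 to 5 were 804, 856, 1416, 1340 and 1042 CPM in NS, and 663, 2330, 2316, 1253 and 1800 CPM in S. The inhibitor libraries gave 1043, 660, 871, 950 and 745 CPM unstretched, and 467, 2080, 1681, 1302 and 1629 CPM stretched. Animals 2, 3 and 5 were higher after stretch in both settings and animal 1 was lower in both. The log2 differences were 0.54 (SE 0.28, adjusted p = 0.159 by edgeR) and 0.58 (SE 0.28, adjusted p = 0.120). Leaving out animal 1 raised them to 0.73 (adjusted p = 0.0109 by edgeR) and 1.04 (adjusted p = 0.000529).

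Dusp7, the close relative of Dusp6 and likewise directed at ERK in the cytoplasm, was the 1 phosphatase called lower. It measured 98.3, 64.1, 27.3, 28.3 and 41.8 CPM in NS animals 1 to 5 and 14.6, 37.8, 32.8, 14.2 and 21.9 CPM in S. With inhibitor it measured 79.6, 70.0, 31.1, 29.3 and 21.5 CPM unstretched and 24.6, 31.1, 32.1, 20.6 and 37.5 CPM stretched. The fall was steepest in animal 1, where S was at 0.148 of NS, and animal 3 was slightly higher after stretch. The log2 difference of S against NS was -1.02 (SE 0.31, adjusted p = 0.0215 by edgeR, lower in 4 of 5 animals), and that of S_PI against NS_PI was -0.57 (SE 0.31, adjusted p = 0.168, lower in 3 of 5). The call without inhibitor ended when animal 1 (log2 difference -0.57, adjusted p = 0.100 by edgeR) or animal 4 (adjusted p = 0.0593) was left out. It also ended in the edgeR fits without the animal block (adjusted p = 0.0911) and on the compared groups alone (adjusted p = 0.0552).

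Dusp10, directed at JNK and p38, rose in the inhibitor libraries. Its values in animals 1 to 5 were 61.4, 34.0, 35.97, 45.9 and 34.7 CPM in NS and 54.3, 138, 84.1, 48.8 and 37.3 CPM in S. In the inhibitor groups they were 48.9, 19.2, 23.7, 28.8 and 25.3 CPM unstretched and 59.6, 140, 98.6, 37.4 and 36.1 CPM stretched. Animals 2 and 3 stood high after stretch, as for Dusp1, and the other 3 changed less. In animal 1 Dusp10 was at 0.885 of its unstretched level without inhibitor and at 1.22 with it. Dusp1 in that animal was at 0.365 and 0.376. The log2 difference was 0.67 (SE 0.32, adjusted p = 0.123 by edgeR, 4 of 5 animals) without inhibitor and 1.25 (SE 0.33, adjusted p = 0.00658 by edgeR, 5 of 5) with it. The call with inhibitor ended without animal 3 (adjusted p = 0.0608), and without animal 1 the difference in the untreated pair was 0.94 (adjusted p = 0.0400).

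Dusp8, a JNK and p38 phosphatase best known from brain and heart, was near the detection floor, with 3 to 35 counts per library. Group means without inhibitor were 5.45 ± 1.49 CPM unstretched and 6.88 ± 3.61 CPM stretched, and with inhibitor 5.90 ± 2.98 CPM and 8.30 ± 5.24 CPM (SD, n = 5). The highest libraries of the stretched groups were both from animal 2, at 12.5 and 17.1 CPM. Neither stretch difference passed the test (0.32 and 0.50 on the log2 scale, adjusted p = 0.622 and 0.385 by edgeR). Dusp16, also directed at JNK and p38, had 2 to 16 counts per library and 136 in all, with means of 3.16 CPM in NS, 4.87 CPM in S, 2.73 CPM with inhibitor alone and 4.32 CPM with inhibitor and stretch. It reached the floor of 3 counts in every library but the stretched one of animal 5 without inhibitor, and was too low to test. Dusp14 had 2 counts in all 20 libraries, 1 in NS_PI and 1 in S_PI. Dusp4, a nuclear phosphatase that in other cells is an ERK target, was listed at 0 in all 20 libraries. Whether the annotation used for counting covered its 3′ end is not known, so the 0 sets no limit on its level. The table lists 4094 of the 17337 symbols at 0 throughout, among them the MAP kinase Mapk7 and the atypical phosphatases Dusp11 and Dusp23. Tags assigned outside annotated genes made up 16.2 to 24.5% of the deposited records, and which annotation was used for counting is not given in the sources used here.

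**Figure D3:**
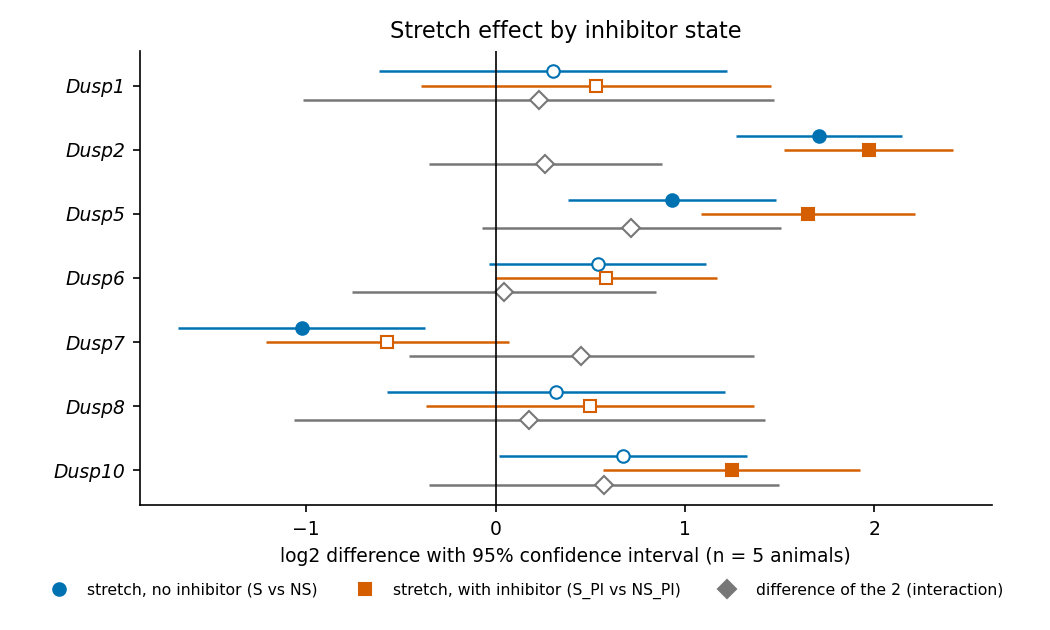
Fitted log2 stretch difference of the 7 tested phosphatases without inhibitor (circles) and with it (squares), and the difference between both (diamonds), with 95% confidence intervals over 5 animals; filled symbols passed an adjusted p of 0.05. Dusp2 and Dusp5 are filled in both settings, Dusp7 only without and Dusp10 only with inhibitor, and no diamond is filled.

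The stretch response differed between animals for 4 of the 7 phosphatases, Dusp1, Dusp6, Dusp7 and Dusp10. In a fit that let each animal have its own stretch effect, with the inhibitor-free and the inhibitor pair of each animal as its 2 observations, the test of equal effects gave adjusted p = 2.25e-08 for Dusp1, 4.3e-06 for Dusp10, 4.35e-05 for Dusp6 and 0.00125 for Dusp7 by edgeR. Of all tested genes 15.7% passed that test. Dusp8 (adjusted p = 0.123), Dusp5 (0.462) and Dusp2 (0.897) did not; with no filter on low counts Dusp8 passed as well (0.0376), which made 5 phosphatases. The p for Dusp7 rested on animal 1 and was 0.145 without it. This fit was added after the data had been seen, and the 2 pairs of an animal came from 1 cell isolation, so it measures repeatability within an animal and not a property of the rat.

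Averaged over both pairs, Dusp1 changed by -1.45 on the log2 scale in animal 1 (SE 0.21, adjusted p = 5.07e-06 by edgeR), by 2.27 in animal 2 (SE 0.20, adjusted p = 9.45e-09) and by 1.61 in animal 3 (SE 0.20, adjusted p = 2.77e-06). In animals 4 and 5 the change was -0.27 and -0.14 and did not pass. Dusp10 rose by 2.43 in animal 2 and 1.64 in animal 3, both called, and was at 0.06, 0.23 and 0.32 in animals 1, 4 and 5. Dusp6 rose in animals 2 (1.55), 3 (0.82) and 5 (0.96), was lower in animal 1 (-0.75) and was not called in animal 4 (0.19). Dusp7 was lower in animals 1 (-2.20) and 2 (-0.93) and not called in the other 3. By contrast the Dusp2 change lay between 1.60 and 2.05 and was called in all 5 animals, and Dusp5 was called higher in animals 1 to 3 (1.03, 1.68 and 1.73) and read 0.97 and 0.78 in animals 4 and 5. Among all tested genes, the share called higher in animals 1 to 5 was 19.8%, 14.5%, 7.99%, 4.88% and 6.59%, and the share called lower 19.5%, 14%, 6.54%, 4.29% and 6.51%. The animal-specific effects narrow the residual spread. With them in the fit, 4 phosphatases were called higher for S against NS (Dusp2, Dusp5, Dusp6 and Dusp10) and Dusp7 lower. For S_PI against NS_PI 5 were called higher and Dusp7 lower (log2 difference -0.55, adjusted p = 0.0171 by edgeR). Of all 8320 genes that fit called 1480 higher and 1496 lower for S against NS, and 1662 and 1758 for S_PI against NS_PI. Differences between animals no longer count as error there, so its calls hold for the mean of these 5 animals alone. Dusp1, among the 5 called with inhibitor, had animal effects from -1.45 to 2.27.

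**Figure D4:**
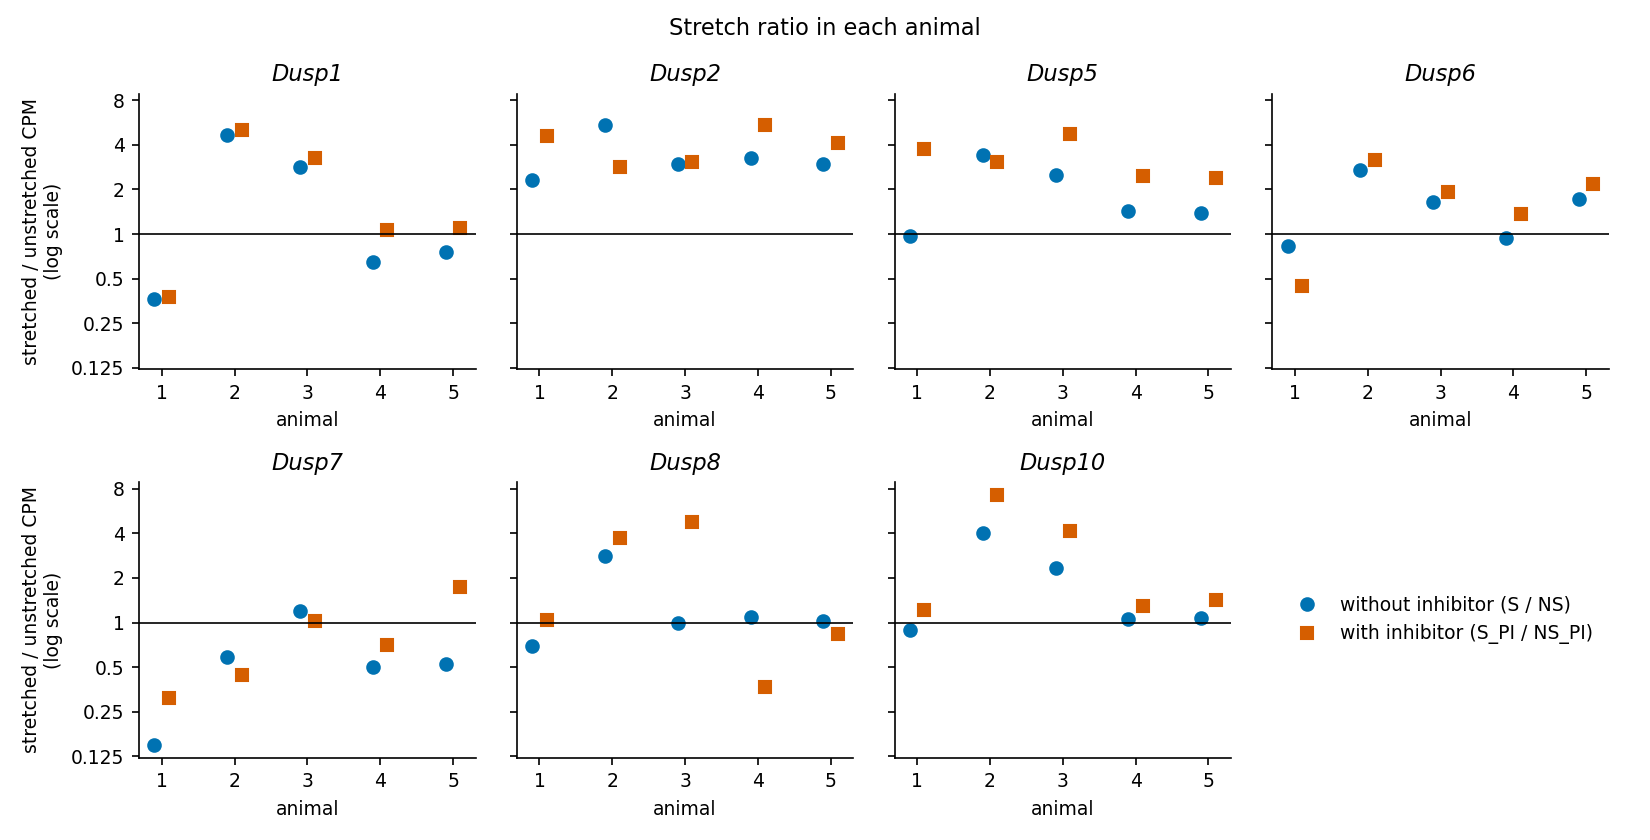
Ratio of stretched to unstretched CPM in each of the 5 animals, on a log axis, without inhibitor (circles) and with it (squares). For Dusp1 the ratios were 0.365 and 0.376 in animal 1 and 4.68 and 5.005 in animal 2, and lay on opposite sides of 1 in animal 4 (0.651 and 1.06) and animal 5 (0.760 and 1.10), whereas Dusp2 is above 1 in all 10 ratios.

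The epithelial and type I marker sums had their highest stretched-to-unstretched ratios in animals 2 and 3 in both settings, as did Dusp1 and Dusp10. The other marker sums did not. The summed level of 6 epithelial markers (Epcam, Cdh1, Krt8, Krt18, Krt19 and Cldn4) was 10038 to 11704 CPM in NS. After stretch it was at 0.339 of the unstretched level in animal 1, 1.27 in animal 2, 1.03 in animal 3, 0.420 in animal 4 and 0.448 in animal 5. With inhibitor these ratios were 0.204, 1.03, 1.28, 0.459 and 0.559. So the animals with the highest Dusp1 and Dusp10 after stretch, 2 and 3, were those in which the epithelial sum was at or above its unstretched level. Most of the epithelial sum was Cdh1, with a mean of 6428 of 10762 CPM in NS and 4385 of 7399 CPM in S. Of the 6 genes, 1 was called lower without inhibitor, Krt8, and 3 with it, Epcam, Krt8 and Krt18. None was called higher, and Cdh1 was called in neither setting. Of all tested genes 12.4% were called lower without inhibitor and 15.3% with it. The type I marker sum over 13 genes had ratios of 0.459, 0.984, 1.03, 0.616 and 0.573 without inhibitor. The type II sum over 11 genes was lower in animal 1 alone, at 0.471 without and 0.338 with inhibitor, where Dusp1 and Dusp6 were lower in both settings as well. The fibroblast and smooth muscle sum over 11 genes was 4043 to 8660 CPM in NS and 4294 to 13045 CPM in S. Its highest ratio was in animal 1, at 1.85 without and 1.87 with inhibitor. Most of this sum was Col1a1, with a mean of 3939 of 6190 CPM in NS and 6296 of 8658 CPM in S. Its genes did not move together: of 8 tested, Col1a1 was called higher and Tagln lower without inhibitor. With inhibitor 3 were called higher and 2 lower. All 8 endothelial markers together were at 0.743 to 9.92 CPM, with Cdh5 and Cldn5 at 0 in every library. The type I markers Pdpn and Ager were at 1997 and 510 CPM in NS, whereas Aqp5, a defining marker of that cell, was at 4.57 CPM. The part of these marker shifts in the Dusp1, Dusp6, Dusp7 and Dusp10 results was not tested.

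**Figure D5:**
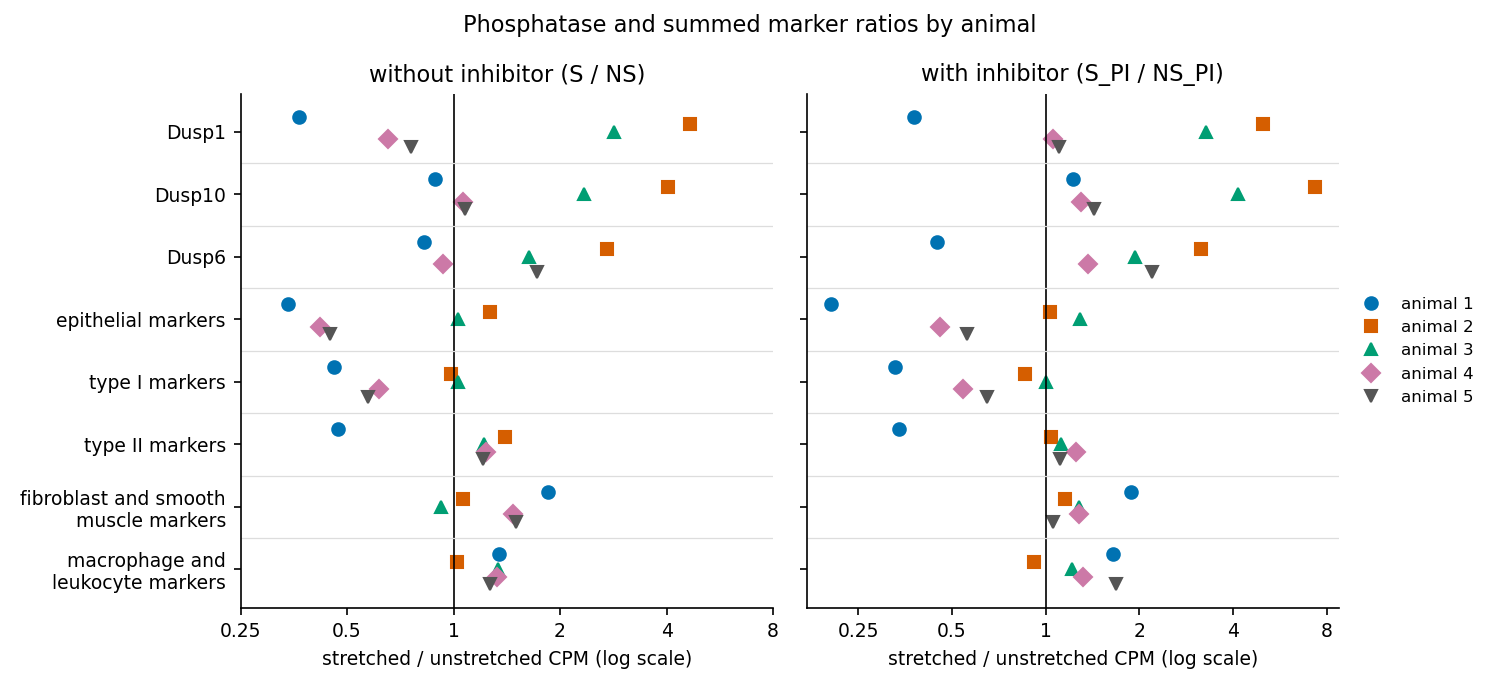
Ratio of stretched to unstretched level, on a log axis, for Dusp1, Dusp10 and Dusp6 and for summed marker CPM of 5 cell classes, without inhibitor (left) and with it (right); each symbol is 1 animal. Animals 2 and 3 lie highest for Dusp1 and Dusp10 and at or above 1 for the epithelial sum, and animal 1 lies lowest for Dusp1 and for the epithelial sum at 0.339 and 0.204.

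The PERK inhibitor changed none of the 7 phosphatases at the threshold, with or without stretch, and the stretch effect did not differ between the settings for any of them. Across all 8320 genes edgeR called 0 in NS_PI against NS, 0 in S_PI against S and 0 in the interaction, with 455 (5.47%), 340 (4.09%) and 345 (4.15%) genes at an unadjusted p under 0.05. In that fit no phosphatase had an unadjusted p under 0.05 in these 3 comparisons, and DESeq2 and limma-voom also called 0 of the 7. The smallest was that of the Dusp5 interaction (unadjusted p = 0.0728). In the unstretched libraries Dusp10 was lower with inhibitor in all 5 animals, as were 6.2% of all tested genes (log2 difference -0.56, SE 0.33, unadjusted p = 0.103, adjusted p = 0.922 by edgeR), and Dusp5 differed by -0.50 (SE 0.29, unadjusted p = 0.0978, adjusted p = 0.922). With the animal-specific stretch effects in the fit, 4 unadjusted p-values of edgeR were under 0.05: Dusp10 (0.000483, adjusted 0.0759) and Dusp6 (0.0156, adjusted 0.346) in NS_PI against NS, and Dusp10 (0.00497, adjusted 0.491) and Dusp5 (0.0497, adjusted 0.594) in the interaction. None was called after adjustment. In stretched cells the 7 log2 differences with inhibitor ran from -0.23 for Dusp6 to 0.29 for Dusp7. For Dusp2 the stretch effect with inhibitor exceeded that without it by 0.26 on the log2 scale (95% interval -0.35 to 0.88), for Dusp5 by 0.72 (-0.07 to 1.51, adjusted p = 0.984 by edgeR) and for Dusp10 by 0.57 (-0.35 to 1.498, adjusted p = 0.984). The stretch difference of Dusp10 was greater with inhibitor in 5 of 5 animals, as was that of Dusp1, and as for 5.37% of all tested genes. The upper ends of the Dusp5 and Dusp10 intervals exceeded their stretch differences without inhibitor, so a difference was not detectable and a lack of one was not shown. The stretch comparison with inhibitor shares the NS_PI libraries, and the one without shares the NS libraries, with the unstretched inhibitor comparison.

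Other dual-specificity phosphatases, not all of which act on MAP kinases, moved in both directions with stretch without inhibitor. Of 20 other dual-specificity phosphatases listed in the counts, 11 were tested. For S against NS 1 was called higher and 4 lower, beside 12.5% and 12.4% of all tested genes. For S_PI against NS_PI 0 were called higher and 4 lower, beside 15.2% and 15.3%. Dusp3, an atypical phosphatase of ERK and JNK, fell from 107 ± 30.1 to 52.2 ± 8.42 CPM (SD, n = 5; log2 difference -1.03, SE 0.15, adjusted p = 8.19e-05 by edgeR), lower in 5 of 5 animals. The low transcript Dusp26 fell by 1.43 on the log2 scale, and Ssh3, a cofilin phosphatase, fell by 0.72. Dusp9, a cytoplasmic ERK phosphatase of the same subgroup as Dusp6 and Dusp7, rose from 5.70 to 11.5 CPM (log2 difference 1.05, adjusted p = 0.0214 by edgeR). Its call ended without animal 2 (adjusted p = 0.139) or animal 3 (0.0760), that of Dusp26 without animal 1 (0.108), and that of Ssh3 without animal 1 (0.0592) or animal 5 (0.0894). With inhibitor Dusp3 and Dusp26 were called lower. Dusp9 (0.79, adjusted p = 0.0961 by edgeR) and Ssh3 (-0.54, adjusted p = 0.0558) were not called there.

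Of 12 tested genes of other phosphatase classes, listed as MAP kinase phosphatases, 4 rose and none fell without inhibitor, and 4 rose and 1 fell with it. Of all tested genes 12.5% were called higher and 12.4% lower without inhibitor, and 15.2% and 15.3% with it. Ppm1d, a p53-induced phosphatase that acts on p38, rose from 19.5 ± 1.81 to 41.1 ± 9.06 CPM (log2 difference 1.06, SE 0.16, adjusted p = 0.000143 by edgeR), in 5 of 5 animals in both settings. Ppp2ca, the catalytic subunit of protein phosphatase 2A, rose by 0.67 on the log2 scale, its regulatory subunit Ppp2r2a by 0.58 and the tyrosine phosphatase Ptpn1 by 0.55. The Ppp2ca call ended without animal 2 (adjusted p = 0.0558) or animal 3 (0.0522), and the Ptpn1 call without animals 2 (0.0928), 3 (0.0716) or 5 (0.0603) and under total-count scaling (0.0624), each by edgeR. With inhibitor Ppm1d, Ppp2r2a and Ptpn1 were called higher, and Ppp2ca was not (0.44, adjusted p = 0.0774 by edgeR).

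Of the MAP kinase genes a few changed. Of 14 listed, 7 were tested, and S against NS gave 1 higher and 2 lower, beside 12.5% and 12.4% of all tested genes. Mapk6, an atypical kinase, rose from 187 to 269 CPM (log2 difference 0.50, SE 0.12, adjusted p = 0.00549 by edgeR). Mapk9, a JNK gene, fell from 52.1 to 36.4 CPM (-0.51, SE 0.17, adjusted p = 0.0296 by edgeR). Mapk3 (-0.18), Mapk8 (0.17), Mapk14 (-0.31) and Nlk (0.12) did not pass; Mapk14 passed under total-count scaling (-0.41, adjusted p = 0.0147) and upper-quartile scaling (-0.36, adjusted p = 0.0338). Nlk was below 0 under total-count scaling (-0.01) and at 0.05 under upper-quartile scaling. The Mapk9 call ended without animals 1, 2, 3 or 5 (adjusted p = 0.0897, 0.103, 0.0955 and 0.0728). With inhibitor Mapk6 rose (0.77, adjusted p = 0.000106) and Mapk3, which encodes ERK1, fell (-0.58, adjusted p = 0.0331 by edgeR). With inhibitor 0 MAP kinases were called lower without the animal block, on the compared groups alone, without animal 1 or without animal 5, so that call ended there.

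Upstream, 0 of 4 tested MAP2 kinases and 0 of 8 tested scaffolds were called for S against NS by edgeR, where DESeq2 and limma-voom each called 1 scaffold higher. With inhibitor 1 of each list was called higher, beside 15.2% of all tested genes called higher and 15.3% lower. The MAP2 kinase was not called without the animal block or animal 5. The scaffold was not called under upper-quartile or total-count scaling, without the block, on the compared groups alone or without any 1 of animals 2 to 5. Among 22 tested MAP3 kinases and RAS-RAF genes 5 were called higher and 0 lower for S against NS, against 12.5% and 12.4% of all tested genes. The number called lower was 4 under total-count scaling and 2 under upper-quartile scaling, without animal 4 and with the animal-specific stretch effects, and the number called higher was 3 without the animal block. Map3k8, an ERK-activating kinase of inflammatory signalling, rose from 8.31 ± 1.72 to 27.7 ± 9.49 CPM (log2 difference 1.70, SE 0.25, adjusted p = 7.99e-05 by edgeR). Taok2, a p38-activating kinase, rose by 1.18 on the log2 scale, the RAS exchange factor Sos1 by 0.91 and the JNK-activating kinase Map3k11 by 0.71, the last without a call when animal 2 (adjusted p = 0.109) or animal 4 (0.139) was left out. With inhibitor 4 of the 22 were called higher and 1 lower. Map3k8, Sos1 and Map3k11 were called higher there, and Taok2 was not (0.43, adjusted p = 0.159 by edgeR, higher in 3 of 5 animals). Of 9 tested kinases that MAP kinases activate, Rps6ka2 fell by 0.86 and Rps6ka3 rose by 0.55 without inhibitor. The Rps6ka3 call (adjusted p = 0.0482 by edgeR) ended without animals 1, 2, 4 or 5 (0.0530, 0.216, 0.122 and 0.0970), under upper-quartile (0.0718) or total-count scaling (0.109) and with no filter (0.0523), and that of Rps6ka2 without animal 3 (0.0531).

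Some of the genes that ERK signalling is known to raise were called higher. Of 8 tested, 3 were called higher and none lower without inhibitor, and 4 and none with it. Of all tested genes 12.5% were called higher and 12.4% lower without inhibitor, and 15.2% and 15.3% with it. Leaving out animal 2 left 0 of the 8 called higher without inhibitor. Epha2, a receptor tyrosine kinase, rose from 88.8 ± 39.4 to 236 ± 175 CPM (log2 difference 1.24, SE 0.39, adjusted p = 0.0238 by edgeR), and Spry2, a feedback inhibitor of the RAS pathway, from 4.77 ± 2.00 to 13.5 ± 8.63 CPM (1.42, SE 0.38, adjusted p = 0.00909). Phlda1 rose by 0.51. The Epha2 stretch effect also differed between animals (adjusted p = 4e-06 by edgeR), as did that of Phlda1 (0.0406). Spry4 (0.27), Ccnd1 (-0.27), Epha4 (-0.03), Etv4 (0.34) and Etv5 (0.35) did not pass. Without animal 2 or 3 the calls of Epha2 (adjusted p = 0.0816 and 0.0867) and Spry2 (0.0585 and 0.0635) ended, and that of Phlda1 without animal 2 (0.0535) or 5 (0.0595).

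Of 17 tested transcription factors that MAP kinases act on, 8 were called higher and 1 lower in each setting, beside 12.5% and 12.4% of all tested genes without inhibitor and 15.2% and 15.3% with it. The number called lower was 2 under total-count or upper-quartile scaling in both settings, and 0 without animal 4 or 5 without inhibitor and without animal 1, 3 or 5 with it. Without the animal block 5 were called higher for S against NS. Fosb and Fosl1, partners of Jun in AP-1, rose from 0.675 to 8.59 CPM and from 6.32 ± 1.96 to 34.9 ± 16.05 CPM. The log2 differences were 3.56 (SE 0.59, adjusted p = 0.000249 by edgeR) and 2.44 (SE 0.30, adjusted p = 1.79e-05), each higher in 5 of 5 animals; the Fosb level in NS was below the detection floor, so its fold depends on the prior count of the fit. Myc rose by 1.27 and Atf2 by 1.23. Across all the pathway genes named above, the fit without the animal block also ended the calls of Dusp9, Dusp26, Ssh3, Ppp2ca, Ptpn1, Mapk9, Map3k11, Rps6ka2, Rps6ka3, Epha2, Phlda1 and Atf2 (adjusted p from 0.0546 to 0.269 by edgeR). The fit on the compared groups alone ended those of Dusp9, Ssh3, Ppp2ca, Mapk6, Mapk9, Map3k11, Rps6ka3 and Phlda1 (0.0576 to 0.112). The Myc effect differed between animals (adjusted p = 1.32e-05 by edgeR), with the same test at 0.385 for Fosb and 0.0800 for Fosl1.

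The genes whose profiles were most like each phosphatase were ranked by Pearson's r of log2 CPM over the 20 libraries after each animal's mean was removed. The libraries share stretch, animal and depth, and r is given as a description. Among the genes closest to Dusp1 were Baiap2l1 (r = 0.94) and Rcan1 (0.93). For Dusp2 they were the lysosomal protease gene Ctss (0.98), Slc7a6os (0.98) and Gcnt1 (0.98). Dusp5 ran with Fndc3b (0.95), Klf11 (0.94) and Acsl3 (0.94), and Dusp10 with Ets1 (0.95), Myc (0.94) and the epidermal growth factor receptor ligand gene Ereg (0.94). For Dusp6 the values were lower, at 0.90 for Msantd3, 0.89 for Irs2 and 0.88 for Irx2. Dusp7 had Pecr (0.93), Tc2n (0.90) and Cd59 (0.90), and the sparse Dusp8 had Usp54 (0.81), Hspb8 (0.77) and Phldb1 (0.77). Among the phosphatases the highest values were those of Dusp2 with Dusp5 (0.86), Dusp1 with Dusp10 (0.82), Dusp6 with Dusp10 (0.81) and Dusp1 with Dusp6 (0.80), and Dusp7 ran against Dusp2 (-0.53).

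In the authors' deposited table of DESeq2 results, whose header does not name the groups or the direction, Dusp2 (ENSRNOG00000013862) had a log2 fold change of -1.61 with an adjusted p of 8.38e-13. The same deposited table by the authors gave Dusp7 (ENSRNOG00000010789) 0.83 with an adjusted p of 0.0375 and Dusp5 (ENSRNOG00000014061) -0.78 with an adjusted p of 0.0430. Adjusted p-values in the authors' deposited table were 0.689 for Dusp1, 0.113 for Dusp6, 0.122 for Dusp10 and 0.570 for Dusp16. The sign of each was opposite to that of stretched minus unstretched in the counts, and the genes below 0.05 were the same 3 that were called here for S against NS.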

How the data were processed

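Per the submitters' processing notes the authors used STAR, HTSeq and DESeq2 on rat build rn6; tool versions and the annotation were not given in the sources used here. They deposited raw counts per gene symbol for 20 QuantSeq 3′ forward libraries (75-base single reads on a NextSeq500, per the labels' protocols). The authors' second deposited table gives, per the file headers, a mean of normalized counts (a signal), log2 fold change and its error, a Wald statistic (a score), p-value and adjusted p-value. HTSeq summary entries were left out. Records outside genes were 16.2 to 24.5% of all and multiply aligned ones 35.5 to 57.7%.

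Counts were filtered with filterByExpr, scaled by TMM and tested with edgeR 4.0.16 (quasi-likelihood F test, group and animal, all 20 libraries, 12 residual df) in R 4.3.3; limma 3.58.1 and DESeq2 1.42.0 served as alternatives and matplotlib 3.10.9 drew the plots. Benjamini-Hochberg adjustment ran over 8320 genes with a threshold of 0.05. Log2 CPM used a prior count of 2. The code was tested on simulated data. Replicate numbers were taken as animals, because the deposited table is named as controlling for rat and libraries pool monolayers of 1 animal. Same-numbered libraries of different groups deviated together, with a median r of 0.48 (0.32 to 0.79) over 30 pairs. Over 120 differently numbered pairs the median was -0.17 (-0.52 to 0.48), so the ranges overlapped. Group means were subtracted first, which by itself pulls the r of differently numbered pairs below 0. The labels name no batch. No molecular identifiers are named, so the floor of 3 counts covers counting error only.

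Named genes were all 10 phosphatases, up to 4 called genes per pathway list with the largest S against NS difference, uncalled MAP kinases and ERK output genes, and the 3 most similar genes per phosphatase; 2 genes that this rule selects are not reported here. Members and lists were chosen with earlier results of these data known. Alternatives were other scalings, filters and tools, no block, compared groups only and each animal left out; the animal-specific stretch fit (8 residual df) was added after seeing the data.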

Additional observations from a re-analysis of the deposited data

Results flagged for a closer look

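Dusp2 in unstretched cells with inhibitor had 1 library apart from the other 4: animal 1 read 30.2 CPM where the others read 53.5 to 66.4 CPM. The gap passed Dixon's 95% value for 5 samples only in its 1-sided form, for a gap at a chosen end. In all 28 such sets of libraries were examined, and with either end open chance alone marks more than 1 in 20.

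The stretch effect differed between animals for 4 phosphatases in edgeR's test of equal effects, with an adjusted p of 2.25e-08 for Dusp1, 4.35e-05 for Dusp6, 0.00125 for Dusp7 and 4.3e-06 for Dusp10. In both settings Dusp1 was highest after stretch in animals 2 and 3 and lowest in animal 1.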

How the results depend on the processing

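Dusp2 was called higher in both stretch comparisons under all 15 alternatives, with log2 differences of 1.55 to 1.80 without and 1.85 to 2.10 with inhibitor, and Dusp5 with inhibitor likewise (1.53 to 1.77). Without inhibitor the adjusted p of Dusp5 ranged from 0.00392 to 0.107 and that of Dusp7 from 0.000196 to 0.100; for Dusp10 with inhibitor it reached 0.0608. Without the replicate block, which here is the animal, S against NS gave 1 phosphatase higher, 0 lower and 818 genes in all (2075 with it), and S_PI against NS_PI 1229 genes (2534 with it). Fitting the compared groups alone gave 0 phosphatases lower and 1048 genes for S against NS. Leaving out each animal gave 1 to 4 phosphatases higher and 0 to 1 lower for S against NS (4 without animal 1, 1 without animal 2 or 3). Without animal 1, 950 of all 8230 genes were higher there and 834 lower. Without animal 2 these were 753 and 665 of 8322, and without animal 3 781 and 656 of 8356. For S_PI against NS_PI 2 (without animal 3) to 5 (without animal 1) phosphatases were higher. Of all genes 949 of 8356 and 1240 of 8230 were higher in those 2 fits. For NS_PI against NS 0 to 3 genes were called. Stretch by animal gave 539 (without animal 2) to 1329 genes, 771 without animal 1. With the animal by stretch term 4 phosphatases were higher and 1 lower for S against NS, beside 1480 and 1496 of all 8320 genes. For S_PI against NS_PI 5 were higher and 1 lower, beside 1662 and 1758 genes. For NS_PI against NS the gene count was 0, and 4 with no filter, 5 by DESeq2, 2 by limma-voom, 27 on the compared groups and 31 with the animal by stretch term; none of these was a phosphatase. Total-count scaling moved the median of all genes to -0.12 in both stretch comparisons and the split of calls from 1044 higher and 1031 lower to 722 and 1425 without, and from 1263 and 1271 to 957 and 1677 with inhibitor; upper-quartile scaling gave 854 and 1233, and 1030 and 1612. A filter of 5 CPM in 5 libraries kept 8454 genes. None of the uncalled values that crossed 0 passed the test. For S against NS these were Nlk (-0.00678 by total count, -0.0638 by limma-voom, -0.279 to 0.463 leaving out an animal), Epha4 (0.0221 by limma-voom, 0.120 without the replicate block, -0.321 to 0.605 leaving out an animal), Dusp1 (-0.156 to 0.700) and Dusp8 (-0.0731 to 0.532). For NS_PI against NS it was Dusp8 (-0.0469 by limma-voom, -0.162 to 0.475 leaving out an animal). For S_PI against S they were Dusp10 (-0.00531 by limma-voom, -0.0621 to 0.0877), Dusp2 (-0.0603 without the replicate block, -0.231 to 0.164) and Dusp5 (-0.0241 to 0.397). In the interaction they were Dusp6 (-0.0796 to 0.309) and Dusp8 (-0.155 to 0.489). The cause was not tested. Depth limits Dusp8 and Dusp16, which had as few as 3 and 2 counts in a library.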
